A study of Homo sapiens with 12 samples.

Results

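TGM2 encodes transglutaminase 2, and its levels are described here in NB4 cells, an established human cell line of acute promyelocytic leukemia in which all-trans retinoic acid (ATRA) drives granulocytic maturation. It was taken as every probe set annotated to TGM2 alone, which gave 1 probe set (8066214) and 1 gene of the 18404 genes measured. The probe set lists more than 1 RefSeq transcript of TGM2, so its transcripts cannot be told apart. Total RNA was hybridised to 12 Affymetrix ST arrays, 1 array per sample, and values are log2 expression. HOTAIRM1, a noncoding RNA from the HOXA locus, was the target of the knockdown, by shRNA1 in 2 ATRA and 2 untreated arrays and by shRNA2 in 1 ATRA and 1 untreated array. The control cells were NB4 cells with a scrambled shRNA, with 2 ATRA and 2 untreated arrays, or wild type NB4 cells, with 1 of each. Each line was measured after 96 hours of 0.5 uM ATRA and untreated, which gives 4 arms of 3 arrays. The shRNA cells came from a lentiviral pLKO.3G vector, were sorted for GFP and were derived from single cells on soft agar. Wild type cells had neither vector, sorting nor cloning, so vector and cloning are shared by all lines but the wild type. The level of HOTAIRM1 itself was not analysed here, since no probe set was annotated to it alone. The duplicates are called biological, without saying whether they are separate clones, so the error given here is the spread between these samples and may be partly technical.

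Transglutaminase 2 uses calcium to join glutamine and lysine side chains of proteins into stable crosslinks. It also binds GTP inside the cell, and at the cell surface it binds fibronectin and integrins without needing its crosslinking activity. Retinoic acid is a long known inducer of TGM2 in myeloid leukemia cells, and in NB4 cells the protein has been tied to the output of chemokines and to the oxidase that makes superoxide. TGM2 was chosen for its levels on these arrays and its change with ATRA, so its own values are given as a description with no test.

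Arrays within an arm correlated across genes with Pearson's r between 0.979 and 0.995, and array medians lay between 7.73 and 7.81. The mean log2 level of the 9 promyelocyte markers measured lay between 10.2 and 10.6 in ATRA and 10.7 and 10.9 in untreated knockdown cells. In control cells it lay between 9.43 and 10.3 in ATRA and 10.4 and 10.8 in untreated arrays. MPO, the granule peroxidase, lay between 12.67 and 13.81 on all 12 arrays, while KIT, a receptor of immature cells, lay between 5.27 and 5.65, below the array medians. Of the 9, 2 (22.2%) fell with ATRA in knockdown cells and 2 in control cells, beside 14.7% and 20.9% of all genes (limma, adjusted p under 0.05). Untreated scrambled replicate 2 stood apart from the other untreated arrays. This array was kept as untreated because its label says so, and why it stood apart was not tested. In it 40 genes lay at least 2 log2 units above the mean of the other 5 untreated arrays, and 0 genes lay as far below. Each of those 5 arrays, set against the others in the same way, had 0 to 4 genes as far above and 0 to 12 as far below, the 12 in untreated shRNA2. At any distance, 4144 of the 18404 genes in untreated scrambled replicate 2 lay above all 5 other untreated arrays and 5346 lay below all 5. The TGM2 means and, for the lists of genes tied to TGM2, the counts that changed without untreated scrambled replicate 2 are given with and without it.

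TGM2 was high in every ATRA array and low in every untreated array but that of scrambled replicate 2. After ATRA the knockdown cells had 13.60 (shRNA1 replicate 1), 13.49 (shRNA1 replicate 2) and 13.54 (shRNA2). Untreated knockdown cells had 8.09, 7.93 and 8.28 in the same order. The ATRA arrays of knockdown cells lay over 5 log2 units above the untreated ones and the groups did not overlap. After ATRA the control cells had 13.62 (wild type), 13.78 (scrambled replicate 1) and 13.85 (scrambled replicate 2). Untreated control cells had 8.16, 8.30 and 12.86 in the same order. Untreated scrambled replicate 2 was therefore high as well, yet still below all 6 ATRA arrays, so the groups did not overlap in control cells either. Among all genes the 3 ATRA arrays lay above the 3 untreated arrays for 16.7% of genes in knockdown cells and below them for 24.6%, and above for 25.2% and below for 23.4% in control cells. That contrast chose TGM2, so nothing is read from it.

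**Figure D1:**
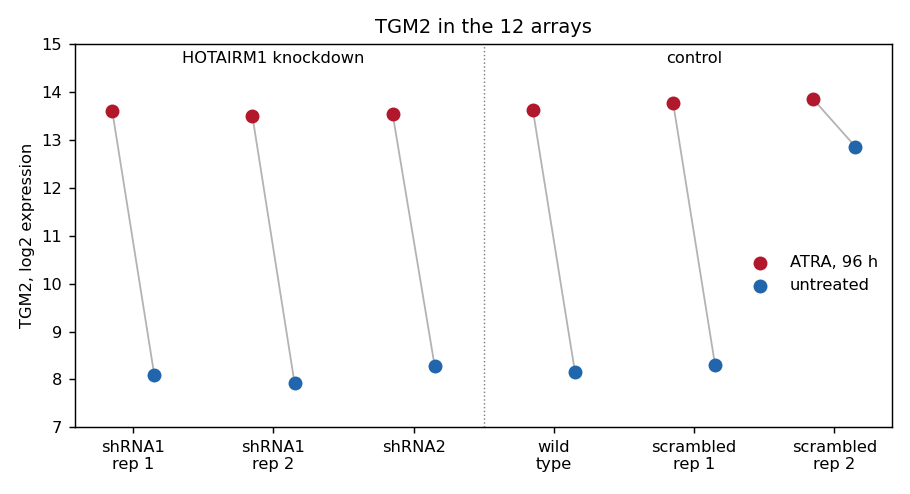
TGM2 log2 expression (vertical axis) in the 12 arrays, by line (horizontal axis), with ATRA arrays in red to the left of untreated arrays in blue and a grey line joining arrays of the same shRNA and replicate number. Untreated scrambled replicate 2 sits at 12.86, while the other untreated arrays sit between 7.93 and 8.30 and the ATRA arrays between 13.49 and 13.85.

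The change of TGM2 by line was nearly the same in 5 of the 6 lines. A line here is wild type or 1 replicate number of 1 shRNA, so duplicates of the same shRNA are counted apart. They may not be separate clones. Matched by shRNA and replicate number, ATRA minus untreated was 5.51 for shRNA1 replicate 1, 5.56 for shRNA1 replicate 2 and 5.26 for shRNA2, which are 45.6-fold, 47.1-fold and 38.4-fold. It was 5.46 for wild type cells and 5.48 for scrambled replicate 1, or 44.0-fold and 44.7-fold. Scrambled replicate 2 stood apart with a change of 0.99, or 1.98-fold. TGM2 had the largest rise of all 18404 genes in shRNA1 replicates 1 and 2, wild type cells and scrambled replicate 1, the 7th largest in shRNA2 and the 241st largest in scrambled replicate 2. The mean change was 5.44 ± 0.16 in knockdown lines and 3.98 ± 2.59 in control lines (SD, n = 3 each), and 5.47 ± 0.02 in control lines without scrambled replicate 2 (SD, n = 2). The difference between the arms' mean changes thus came with 1 array.

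Duplicates show how far neighbouring levels can be told apart. The 2 shRNA1 arrays differed by 0.11 after ATRA and by 0.16 untreated, and the 2 scrambled arrays by 0.07 after ATRA and by 4.56 untreated. In order, the ATRA levels were highest in scrambled cells, then wild type, then knockdown cells, over a whole range of 0.36. TGM2 averaged 13.54 ± 0.06 in knockdown cells and 13.75 ± 0.11 in control cells after ATRA (SD, n = 3 each), a difference of -0.21 or 0.865-fold. All 3 knockdown arrays lay below all 3 control arrays, and both scrambled arrays lay above the highest knockdown array by more than either duplicate difference after ATRA. The single wild type array, which has no spread of its own, lay nearer to shRNA1 replicate 1 than the shRNA1 duplicates lay to each other. Among all genes 20.7% had the 3 knockdown arrays below the 3 control arrays after ATRA and 14.3% above, so such a separation was common.

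Untreated knockdown and control cells had near means of TGM2 once the array that stood apart was set aside. TGM2 averaged 8.10 ± 0.17 in untreated knockdown cells and 9.77 ± 2.67 in untreated control cells (SD, n = 3 each), a difference of -1.67. Without scrambled replicate 2 the control mean was 8.23 ± 0.09 (SD, n = 2) and the difference -0.13. The groups overlapped with or without that array, while among all genes 3.75% had the 3 untreated knockdown arrays above the 3 control arrays and 4.04% below. In the 5 other untreated arrays TGM2 had an SD of 0.15, where the median SD of all genes was 0.11, and over the 6 ATRA arrays its SD was 0.14, where the median of all genes was 0.15. The induced level is near the top of the array's scale: in the ATRA arrays TGM2 lay 0.69 to 1.03 log2 units below the brightest probe set of the same array. Whether this narrows the differences between lines after ATRA was not tested.

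The rest of the transglutaminase family comprises TGM1 and TGM3 to TGM7, the coagulation factor XIII subunits F13A1 and F13B, and EPB42, a red cell membrane protein without the enzyme activity. All 9 had a probe set of their own. In knockdown cells 2 of the 9 rose with ATRA and 0 fell, where 10.1% of all genes rose and 14.7% fell (limma, adjusted p under 0.05). TGM3, an enzyme of hair and skin, rose by 1.05 (SE 0.24, adjusted p = 0.00739, limma) and TGM5, another skin enzyme, by 1.02 (SE 0.33, adjusted p = 0.0427). The call of TGM5 ended without any of several arrays, with an adjusted p of up to 0.138 (without shRNA2 ATRA). In control cells 2 of the 9 rose and 0 fell, where 15.2% of all genes rose and 20.9% fell, namely TGM6 by 0.32 (SE 0.07, adjusted p = 0.00658, limma) and TGM4, known from prostate, by 0.27 (SE 0.09, adjusted p = 0.0383). The call of TGM4 ended when any of 7 arrays was left out, with an adjusted p of up to 0.112 (without scrambled replicate 2 ATRA). The call of TGM6 ended without both wild type arrays (adjusted p = 0.0667, limma) or both scrambled replicate 2 arrays (0.0647). The median log2 change of the 9 genes was 0.05 in knockdown cells, beside -0.03 over all genes, and 0.20 in control cells, beside 0.05 over all genes.

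TGM3 and TGM5 shared with TGM2 the high value in untreated scrambled replicate 2. TGM5 lay between 8.51 and 9.17 in the ATRA arrays, at 9.31 in untreated scrambled replicate 2 and between 7.71 and 8.14 in the other untreated arrays. TGM3 lay between 8.04 and 8.63 in the ATRA arrays, at 8.74 in that array and between 7.33 and 7.8 in the others. The high array thus lay above every ATRA array for both genes. In control cells TGM3 changed by 0.28 (adjusted p = 0.366, limma) and TGM5 by 0.51 (adjusted p = 0.244). Without untreated scrambled replicate 2 both rose in control cells, TGM3 by 0.62 (adjusted p = 0.00913, limma) and TGM5 by 1.0 (adjusted p = 0.0026), so that 3 of the 9 rose there. F13A1, the factor XIII subunit made by monocytes and platelets, lay between 6.36 and 6.82 on all 12 arrays, and TGM1, the keratinocyte enzyme, between 7.76 and 8.05.

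**Figure D2:**
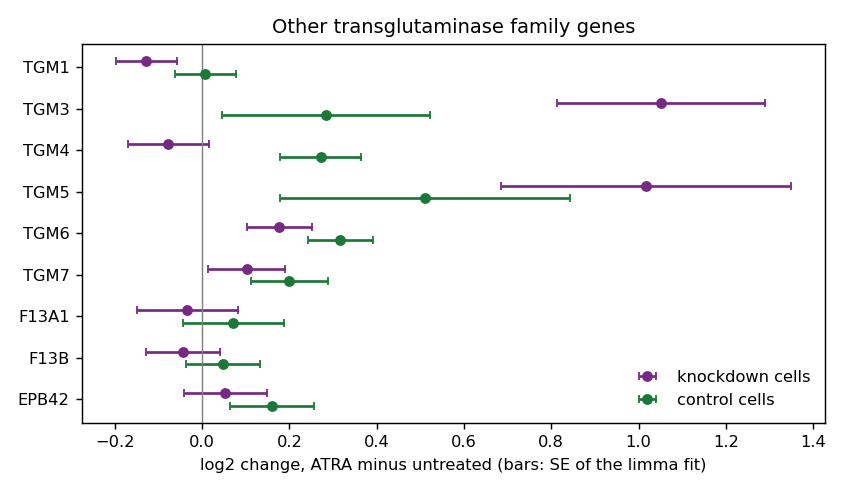
Log2 change with ATRA (horizontal axis, ATRA minus untreated) of the 9 other family genes (vertical axis), as estimate and SE of the limma fit, with knockdown cells in purple above control cells in green (3 against 3 arrays each). TGM3 and TGM5 have changes of 1.05 and 1.02 in knockdown cells, and the other 7 genes lie between -0.13 and 0.18 there.

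The retinoid pathway reaches TGM2 through receptor pairs: retinoic acid binds RAR proteins, which pair with RXR proteins on response elements in DNA. RARB carries the textbook element, a direct repeat just before its start, and its promoter is shown because the gene rose with TGM2 under ATRA. TGM2 had no entry among the promoters used here, so its own promoter was not searched. The stretch is chr3:25428163-25428262 on the plus strand of GRCh38.p14, from RefSeq, ending at the base before the gene's start, with the repeat in capitals.
RARB: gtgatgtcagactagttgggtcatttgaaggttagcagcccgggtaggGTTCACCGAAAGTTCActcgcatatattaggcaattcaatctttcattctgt
The repeat lies 52 to 37 bases before the start. Searched as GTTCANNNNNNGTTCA on both strands, it was found in 20 of 35116 RefSeq promoter windows (0.057%), each from 250 bases before to 50 after a start. Of the 29 windows of retinoid genes in the list described next, 2 held it, those of CYP26A1 and of RARB, from which it was taken. CYP26A1 averaged 6.98 after ATRA and 6.97 untreated in knockdown cells, and 7.36 and 6.98 in control cells. Direct repeats of GGTCA, 5 or 2 bases apart, were in 0 of the 29 windows. A link between such repeats and the change with ATRA was not tested.

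RARB had 8.63, 8.76 and 9.76 in the ATRA arrays of knockdown cells (shRNA1 replicates 1 and 2, shRNA2), against 6.19, 6.40 and 6.39 untreated. It had 9.53, 8.76 and 8.32 in the ATRA arrays of control cells (wild type, scrambled replicates 1 and 2), against 6.07, 6.33 and 6.82 untreated. The ATRA arrays of RARB lay above all untreated arrays. It rose by 2.72 in knockdown cells (SE 0.33, adjusted p = 0.000372, limma) and by 2.46 in control cells (SE 0.33, adjusted p = 0.000252). Unlike TGM2, RARB was only 0.54 higher in untreated scrambled replicate 2 than in the mean of the other untreated arrays.

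Of 18 measured genes of retinoic acid receptors and direct targets other than TGM2, 9 rose and 1 fell with ATRA in knockdown cells, and 6 rose and 1 fell in control cells. These are 50% and 33.3% higher, beside 10.1% and 15.2% of all genes, and 5.56% lower in both, beside 14.7% and 20.9%. The median log2 change was 0.68 in knockdown cells, beside -0.03 over all genes, and 0.57 in control cells, beside 0.05. DHRS3, which turns retinal back into retinol, rose by 3.42 in knockdown cells (SE 0.59, adjusted p = 0.0017, limma) and by 2.06 in control cells (SE 0.59, adjusted p = 0.0188). The control call of DHRS3 ended without untreated wild type (1.64, adjusted p = 0.0832), untreated scrambled replicate 1 (1.51, 0.0671), wild type ATRA (1.91, 0.058) or scrambled replicate 1 ATRA (1.95, 0.0527). PLAAT4, a retinoid-induced phospholipase, rose by 2.52 and 1.88, UBA7, the activating enzyme for ISG15, by 2.14 and 1.54, and STRA6, a retinol transporter, by 0.96 and 0.64 in knockdown and control cells. The control calls of PLAAT4 and STRA6 ended without both wild type arrays (1.57 and 0.38, adjusted p = 0.121 each, limma). RXRA, the partner receptor, fell by 1.41 in knockdown cells and fell by 0.98 in control cells. Without untreated scrambled replicate 2, 9 of the 18 genes rose in control cells and DHRS3 rose by 3.02 (adjusted p = 6.55e-06, limma).

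Regulators of TGM2 transcription include signalling genes beside the retinoid receptors RXRA and RXRB. Of 18 measured genes on this list 5 rose and 2 fell in knockdown cells, and 5 rose and 2 fell in control cells (1 fell there without untreated scrambled replicate 2), with medians of 0.04 and 0.10. The 27.8% that rose in both kinds of cells stand beside 10.1% and 15.2% of all genes, and the 11.1% that fell beside 14.7% and 20.9%. TGFBR2, a receptor for transforming growth factor beta, rose by 1.04 (SE 0.13) in knockdown cells and by 1.21 (SE 0.13) in control cells. SMAD3, which carries that signal to the nucleus, rose by 1.08 and 0.82, and HIF1A, the hypoxia factor, by 0.63 (adjusted p = 0.017, limma) and 0.56 (adjusted p = 0.0236) in knockdown and control cells. The control call of SMAD3 ended without both wild type arrays (0.51, adjusted p = 0.0829, limma). The control call of HIF1A ended without scrambled replicate 2 ATRA (adjusted p = 0.0841), untreated wild type (0.0682) or untreated scrambled replicate 1 (0.35, 0.0679), and its knockdown call without untreated shRNA2 (0.0519) or shRNA1 replicate 2 ATRA (0.0549). IL6R, an interleukin receptor chain, rose by 0.81 in control cells (adjusted p = 0.0113, limma; 0.51 without untreated scrambled replicate 1) and had a change of 0.51 in knockdown cells (adjusted p = 0.108). The repressor ZEB1 had changes of -0.67 and -0.66, in knockdown and control cells, with adjusted p values of 0.0181 and 0.0151 (limma). Its knockdown call ended without shRNA1 replicate 2 ATRA (0.0663), shRNA2 ATRA (0.051) or untreated shRNA2 (-0.45, 0.0558), and its control call without untreated scrambled replicate 2 (0.0521) or scrambled replicate 1 ATRA (0.0516).

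Genes whose products work with transglutaminase 2 at the surface and in G protein signalling came next. Of 18 measured surface and matrix partners 1 rose and 3 fell in knockdown cells, and 2 rose and 3 fell in control cells (1 and 4 without untreated scrambled replicate 2), with medians of 0.03 and 0.12. That is 5.56% and 11.1% higher, beside 10.1% and 15.2% of all genes, and 16.7% lower in both, beside 14.7% and 20.9%. ITGA5, the fibronectin receptor's alpha chain, fell by 1.27 in knockdown cells (SE 0.17) and fell by 1.45 in control cells (SE 0.17). CD44, the hyaluronan receptor, rose by 0.80 and 1.22 (SE 0.18 each), and LRP5, a Wnt coreceptor, fell by 0.65 and fell by 1.0 (SE 0.10 each) in knockdown and control cells. SDC2, a heparan sulfate carrier, had a change of -1.49 in knockdown cells (adjusted p = 0.016, limma; 0.0684 without untreated shRNA2, 0.0635 without shRNA1 replicate 1 ATRA). In control cells its change was -0.61 (adjusted p = 0.242, limma), and -1.07 without untreated scrambled replicate 2 (adjusted p = 0.0275). Of 8 G protein partners 0 rose and 2 fell in knockdown cells, and 0 rose and 1 fell in control cells (2 fell there without untreated scrambled replicate 2). The shares lower were 25% and 12.5%, beside 14.7% and 20.9% of all genes, and 10.1% and 15.2% of all genes were higher. The 2 that fell in knockdown cells were CALR, with a change of -0.72, and OXTR, with -0.46. Each call ended without any of several knockdown arrays, at adjusted p values of up to 0.114 for CALR and 0.0672 for OXTR (limma). In control cells their changes were -0.53 (adjusted p = 0.0774, limma) and -0.18 (0.253). The thromboxane receptor TBXA2R had a change of -0.44 in knockdown cells (adjusted p = 0.174, limma) and of -0.86 in control cells (adjusted p = 0.00922). The control call of TBXA2R ended without both wild type arrays (-0.88, adjusted p = 0.0589, limma).

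Of 17 measured intracellular substrates 3 rose and 2 fell in knockdown cells, and 3 rose and 2 fell in control cells (4 rose there without untreated scrambled replicate 2), with medians of 0.12 and 0.04. That is 17.6% higher in both, beside 10.1% and 15.2% of all genes, and 11.8% lower in both, beside 14.7% and 20.9%. NFKBIA, the inhibitor of NF-kappaB that transglutaminase 2 can crosslink, rose by 1.58 in knockdown cells (SE 0.29, adjusted p = 0.00244, limma) and by 1.48 in control cells (SE 0.29, adjusted p = 0.0024). The cell cycle brake RB1 rose by 0.42 and 0.41, while PARK7, a protein of oxidative stress defence, fell by 0.39 and fell by 0.42 in knockdown and control cells. The histone gene H3C1 fell by 0.53 and fell by 0.70 and belongs to a family of near-identical copies, so its signal is uncertain. PPARG, a nuclear receptor, rose by 1.06 in control cells (adjusted p = 0.0101, limma) and had a change of 0.49 in knockdown cells (adjusted p = 0.228). Without both wild type arrays the control calls of RB1 (0.28, adjusted p = 0.117, limma) and PPARG (0.83, 0.0686) ended.

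Chemokines and oxidase subunits that earlier work in NB4 cells tied to transglutaminase 2 rose in most cases. Of 11 measured genes 10 rose and 0 fell in knockdown cells, and 7 rose and 0 fell in control cells (9 rose there without untreated scrambled replicate 2). The shares higher were 90.9% and 63.6%, beside 10.1% and 15.2% of all genes. The median log2 change was 1.29 in knockdown cells, beside -0.03 over all genes, and 1.08 in control cells, beside 0.05. CCL24, a chemokine for eosinophils, had 11.24, 11.41 and 11.48 in the ATRA arrays of knockdown cells, against 7.37, 7.52 and 7.52 untreated. It had 11.32, 11.57 and 12.22 in the ATRA arrays of control cells, against 7.32, 7.59 and 10.96 untreated. Its high untreated value was again in scrambled replicate 2. CCL24 rose by 3.91 in knockdown cells (SE 0.71, adjusted p = 0.0022, limma) and by 3.08 in control cells (SE 0.71, adjusted p = 0.00596; 4.24 without untreated scrambled replicate 2). CYBB, the catalytic subunit of the oxidase, rose by 1.48 and 1.08 (SE 0.22 each; 1.40 in control cells without that array).

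IL1B and CXCL8, an inflammatory cytokine and a neutrophil attractant, rose by 3.11 and 2.46 in knockdown cells and by 3.12 and 2.48 in control cells. Both differed from TGM2 in the array that stood apart: IL1B was at 7.31 there, within the 6.66 to 7.37 of the other untreated arrays, and CXCL8 at 9.02, against 8.27 to 8.87. RAC2, a GTPase of the oxidase, rose by 0.94 in knockdown cells and by 0.56 in control cells, where its call ended without untreated scrambled replicate 1 (0.40, adjusted p = 0.115, limma), untreated wild type (0.105), wild type ATRA (0.109) or scrambled replicate 1 ATRA (0.0699). CCL3, a chemokine for monocytes, rose by 0.50 in knockdown cells and by 0.69 in control cells. Its knockdown call ended without any of 4 knockdown arrays, at an adjusted p of up to 0.0745 (without untreated shRNA1 replicate 2, limma).

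Genes for the uptake of dying cells, a macrophage process in which transglutaminase 2 takes part, were the last list. Of 20 measured genes 5 rose and 1 fell in knockdown cells, and 10 rose and 1 fell in control cells (8 and 1 without untreated scrambled replicate 2, and 3 fell in knockdown cells), with medians of 0.05 and 0.21. The shares higher were 25% and 50%, beside 10.1% and 15.2% of all genes, and 5% were lower in both, beside 14.7% and 20.9%. MERTK, a receptor kinase for dying cells, rose by 3.0 in knockdown cells (SE 0.31, adjusted p = 0.00017, limma) and by 2.68 in control cells (SE 0.31, adjusted p = 0.000133). THBS1, the matrix protein thrombospondin, rose by 3.67 and 4.21 (SE 0.39 each), and ABCA1, the cholesterol exporter, by 2.03 and 2.07 (SE 0.19 each) in knockdown and control cells. CD36, a scavenger receptor, rose by 3.24 in control cells (SE 0.75, adjusted p = 0.00601, limma) and had a change of 2.20 in knockdown cells (SE 0.75, adjusted p = 0.0509).

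Monocyte and macrophage markers moved beside these genes. Of 11 measured 4 rose in knockdown cells and 8 in control cells, or 36.4% and 72.7%, beside 10.1% and 15.2% of all genes. The mean log2 level of the list lay between 7.43 and 7.65 in ATRA and 7.01 and 7.04 in untreated knockdown cells, and between 7.74 and 7.76 in ATRA and 6.94 and 7.07 in untreated control cells. Mature neutrophil markers moved as well, with 7 of 13 (53.8%) higher in both knockdown and control cells. Of the 11 endothelial and fibroblast markers, cell types also known for TGM2, 0 rose in knockdown cells and 3 (27.3%) in control cells, none by more than 0.28. The control count was 1 without untreated scrambled replicate 2 and 0 without both scrambled replicate 2 arrays. The part of any of these cell states in the values of TGM2 was not tested. In bulk RNA, more cells expressing a gene and more RNA per cell cannot be told apart.

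Knockdown and control cells were also compared directly across the same lists. After ATRA 0 of the listed genes passed in either direction, where 0.0543% of all genes were higher and 0.00543% lower in knockdown cells (10 and 1 of 18404, limma). All arrays share 1 estimate of the error, so these counts can change with untreated arrays too. They were 0 and 0 without untreated wild type. Without untreated scrambled replicate 2, 420 and 281 genes (2.28% and 1.53%) passed after ATRA. Of the 164 listed genes measured, 2 were then higher (LRP5 and MS4A3) and 3 lower (MARCO, VWF and COL3A1) in knockdown cells, with adjusted p values of 0.0376 to 0.048 (limma) against 0.0506 to 0.0568 with the array. Without both scrambled replicate 2 arrays 0 of them passed. Among untreated cells, and for the difference between the ATRA responses, 0% of all genes passed (limma), with 727 and 2815 genes at an unadjusted p under 0.05. After ATRA the knockdown minus control difference was -0.32 for CCL24 (adjusted p = 0.79, limma), 0.19 for DHRS3 (0.856), 0.05 for TGM5 (0.932) and -0.32 for TGM4 (0.0724).

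The genes with the profile nearest to that of TGM2 were ranked by the root mean square difference between log2 values over the 12 arrays, each gene centred on its own mean. P2RY13, a receptor for ADP, was the nearest, at 0.59 log2 units. CCL24 (0.71) and ALOX5AP, which serves leukotriene synthesis (0.82), came next. ADGRE3 (0.88) and ADGRG3 (1.07) are adhesion receptors, BPI (0.89) is a bactericidal granule protein and JAML (0.90) a leukocyte adhesion molecule. ASB2 (0.92), a retinoic acid induced subunit of a ubiquitin ligase, FGR (0.94), a Src family kinase, and PARP14 (0.98), an interferon-induced ADP-ribosyltransferase, complete the 10. The nearest mirror images were CST7, a protease inhibitor, NT5DC2 and the transcription factor E2F5, at 1.5 to 1.55. All arrays share the split by ATRA, which dominates the measure, and the 10 genes had Pearson's r of 0.948 to 0.995 with TGM2 over the 12 arrays, given as a description. Of the 10 genes, 4 were also among the 10 with the highest r. The repeat shown for RARB was in 0 of the 11 promoter windows of the 8 nearest genes with an entry. Over all promoter windows it was in 0.057%, so 11 windows are too few to read anything from this 0.

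**Figure D3:**
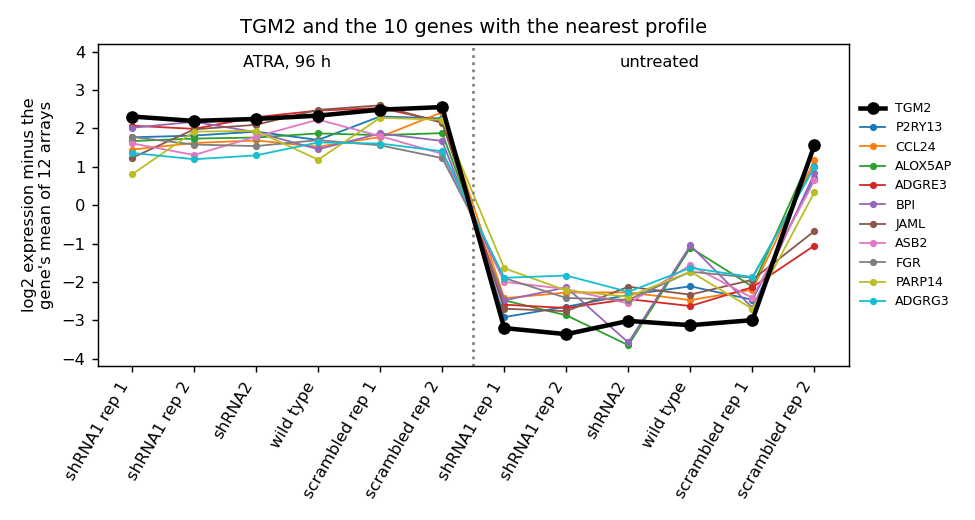
Log2 expression minus each gene's own mean (vertical axis) over the 12 arrays (horizontal axis, ATRA left of untreated), with TGM2 as the thick black line and the 10 nearest genes in colour. In untreated scrambled replicate 2 TGM2 lies 1.57 above its own mean, as most of the 10 genes lie above theirs, while ADGRE3 and JAML lie below.

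The array that stood apart held part of the ATRA rise, unevenly over genes. Among the 149 genes whose mean over the 6 ATRA arrays was at least 2 log2 units above the mean of the other 5 untreated arrays, untreated scrambled replicate 2 held a median of 38.4% of that log2 rise (quartiles 13.2% and 64.4%). TGM2 had the largest rise of the 149, 5.49, and 85.7% of it was present there, which ranked 15th. On the log2 scale TGM2 was 4.71 above the other untreated arrays, 26.1-fold and the largest excess of any gene. It was 0.79 below the mean of the ATRA arrays, or 0.58-fold of it, so the share in log2 units is not a share of RNA. ALOX5AP followed with an excess of 3.92. The array held over 50% of the rise for 55 genes and under 10% for 31. Only 12 genes had a fall of at least 2 between the same means, and it held a median of 43.8% of their fall.

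CXCR5 (168%), a chemokine receptor of B cells, CD52 (113%), a lymphocyte glycoprotein, CYP4F3 (109%), which inactivates leukotrienes, GBP2 (106%), an interferon-induced GTPase, and PADI2 (104%), a citrullinating enzyme, had the largest shares. CXCL10, an interferon-induced chemokine (-35.6%), CD36 (-24.3%), the cytokine subunit EBI3 (-15.6%), the actin-binding PALLD (-10.8%) and the kinase SGK1 (-9.82%) had the smallest, since they were lower there than in the mean of the others. Retinoid genes fell on both sides, with DHRS3 at 93.0% and RARB at 20.2%. THBS1 was at -4.72%, with 8.20 in that array, against 12.05 to 12.50 in the ATRA arrays and 7.75 to 9.74 in the other untreated ones. TGM2 thus moved with DHRS3, CCL24 and ALOX5AP in this array and not with IL1B or THBS1. RARB was higher there too, at 6.82 against 6.07 to 6.40 in the other untreated arrays, but by a smaller share of its rise.

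**Figure D4:**
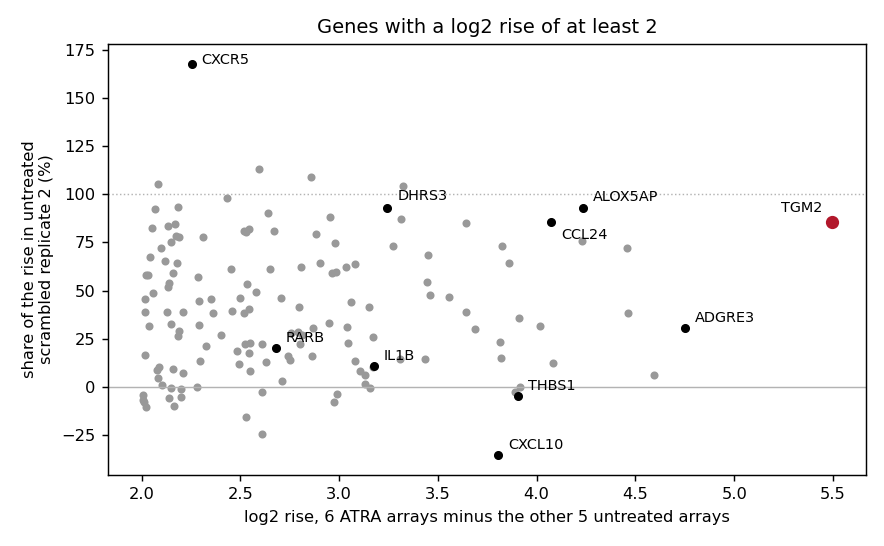
Share of each gene's log2 rise with ATRA already present in untreated scrambled replicate 2 (vertical axis, %, a ratio of log2 differences) against the log2 rise (horizontal axis, mean of 6 ATRA arrays minus mean of the other 5 untreated arrays) for 149 genes with a rise of at least 2. TGM2, in red, has the largest rise, 5.49, and a share of 85.7%, while the median share is 38.4%.

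Some genes in untreated scrambled replicate 2 lay outside both states. In this array 6 genes were at least 1 log2 unit above all 11 other arrays, a number matched by untreated shRNA2 (6) and above the 0 or 1 of the other untreated arrays. They were CD79A, FBP1, CA6, NDRG1, ID1 and VAT1, named after their values were seen. CD79A, a chain of the B cell receptor, stood at 10.91 there, against 8.32 to 8.78 in the ATRA arrays and 7.87 to 8.57 in the other untreated arrays. Of the 7 lymphoid markers 4 were above the other 5 untreated arrays in it, where 22.5% of all genes were, and CD79B, the partner chain, was at 8.45, within the 8.29 to 8.91 of the others. The part of other cells in this array was not tested.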

How the data were processed

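The deposited values are log2 expression per probe set, 1 column per array, and the submitters' processing notes name RMA and limma, without versions or settings. The genome build is not given in the sources used here. The values were used as deposited. Of 32321 probe sets, 19158 had 1 gene in the platform annotation, 1388 had several and 11775 had no gene named or were not listed. Of those with 1 gene, 19128 were matched to current symbols by Entrez identifier. For 637 genes with several probe sets the brightest on average was kept, giving 18404 genes, with no filter on low values. Tests used limma 3.58.1, run under R 4.3.3 (lmFit on 4 arm means, eBayes, 8 residual degrees of freedom, two-sided, Benjamini-Hochberg adjustment over all genes, threshold 0.05), after the script was tested on simulated data. Descriptions were computed with Python 3.11.15 and pandas 2.3.3.

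TGM2 and the gene lists were chosen with earlier results of these data known. In each list up to 6 members with the smallest p in either ATRA response could be named, with all transglutaminases. The 10 nearest and 3 mirror profiles, and the 5 largest and 5 smallest shares of the rise in untreated scrambled replicate 2, were also named. The number of arrays limits the precision. Deviations of same-numbered arrays from their arm means correlated between -0.173 and 0.226 over the 6 lines, so no test used the numbers as pairs. The change of TGM2 by line, which matches arrays by shRNA and number, is a description.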

Additional observations from a re-analysis of the deposited data

Results flagged for a closer look

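TGM2 in the 6 untreated arrays is given here because 1 array lay far from the others. The gap between untreated scrambled replicate 2 (12.86) and the nearest other array (8.30) was 0.926 of the whole range of the 6 values, and the same share was 0.187 over the 6 ATRA arrays. The arrays belong to different lines, and the values of TGM2 chose the gene, so these shares are a description with no test.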

How the results depend on the processing

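The mean change of TGM2 with ATRA lay between 5.36 and 5.53 in knockdown cells and between 3.17 and 5.52 in control cells when single arrays were left out, the highest without untreated scrambled replicate 2. It was 5.44 and 5.47 without both arrays of that replicate, and 5.41 and 3.98 after quantile normalization. The difference between knockdown and control cells after ATRA lay between -0.27 and -0.16 when single arrays were left out. The share of the log2 rise of TGM2 in untreated scrambled replicate 2 was 82.7% when only the scrambled arrays were used. Over all genes, the 2800 higher and 3844 lower calls of the ATRA response in control cells were 983 and 2477 without both wild type arrays, and the higher calls were 4450 with array weights and 1549 to 2762 when single arrays were left out. The 10 higher and 1 lower calls between knockdown and control cells after ATRA ran from 0 to 420 and from 0 to 281 when single arrays were left out. They were 0 and 0 without both scrambled replicate 2 arrays or both wild type arrays, 44 and 19 without the lowest 33.3% of genes, and 383 and 313 with array weights, and the lower calls were 11 after quantile normalization. The cause was not tested. With the line as a replicate block the ATRA response had 1820 higher and 2578 lower calls in knockdown cells and 2300 and 3761 in control cells. Of 101 named calls in the ATRA responses 0 turned direction under any alternative run, and 5 were lost with that block, 6 after quantile normalization 4 to 11 when single arrays were left out, 8 without both scrambled replicate 2 arrays and 21 without both wild type arrays. Without the lowest 33.3% of genes 8 of the 101 had no value. List counts without scrambled replicate 2 and the alternatives for named genes were chosen after seeing the data.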
